A study of Homo sapiens with 26 samples.

Results

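The mitochondrial ribosome makes the few proteins that mitochondrial DNA encodes, and its protein subunits are encoded in the nucleus. The rows examined here are those of these subunits: in the 2 input count tables, every row whose symbol is Mrps or Mrpl followed by a number and at most 1 letter, plus Dap3. The rule found 79 of 55353 rows, 30 for the small subunit (Mrps rows and Dap3) and 49 for the large subunit (Mrpl rows). RNA had been taken from SK-MEL-28, an established human melanoma line, either untreated (control) or kept in salubrinal for 72 h, and all cells received cycloheximide at 100 µg/mL for 12 min before lysis. Salubrinal blocks the removal of phosphate from the initiation factor eIF2α and so switches on the integrated stress response (ISR). Total RNA of unfractionated lysate, called input, was sequenced once per treatment, and 24 further files hold sucrose gradient fractions: 40S, 60S, 80S or polysome material, each from 3 salubrinal and 3 control replicates. The question of the study, by its title and design, was how ISR activation bears on the mitochondrial ribosome and on the RNAs that ribosomes hold.

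Mitochondrial ribosomes consist of a small subunit built on 12S rRNA, which reads the mRNA, and a large subunit built on 16S rRNA, which joins the amino acids. Many of their proteins descend from those of bacterial ribosomes, which is why some antibacterial drugs also block them, and others exist only in mitochondria. The respiratory chain depends on them, since nearly all of its complexes contain proteins made there.

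The promoters of the members' genes hold some short sequences more often than those of coding genes in general. All 79 rows matched a human gene by symbol in a RefSeq table of the assembly GRCh38.p14, and 71 had a promoter entry of 300 bases, from 250 before to 50 after the start of transcription. Short letter strings were searched on both strands: CCGGAAG, bound by ETS family factors such as GABP, AANATGGC, bound by YY1, and GCGCANGCG, bound by nuclear respiratory factor 1 (NRF1). These are factors known for genes of mitochondrial proteins. The ETS string was in 29 of 71 member promoters (40.8%), against 14.2% of 15843 protein-coding promoters of the same length. The YY1 string was in 25 member promoters (35.2%), against 7.92% of the coding promoters. The ETS string, the YY1 string or both stood in 46 member promoters (64.8%), against 20.6% of the coding ones, and 8 member promoters held both, with no overlap between the matches. The NRF1 string was in 13 (18.3%), against 11.0%. The string TTNCATCA, a core of the composite element that ATF4 binds in ISR genes, was in 1 member promoter, that of MRPL55 (1.41%, against 2.53%). Within 50 bases of the start began 23 of the 28 YY1 matches in members (82.1%, against 60.7% of the matches in coding promoters) and 27 of the 39 ETS matches (69.2%, against 53.7%). At or after the start began 22 of the 28 YY1 matches in members, against 680 of 1353 in coding promoters. Those matches lie in the transcript, and the string holds ATG. Whether they are YY1 sites or starts of translation was not tested. Of the 15 NRF1 matches in members, 3 began within 50 bases of the start (20%, against 43.3% of those in coding promoters). At or after the start began 0 of the 15, against 195 of 2485 in coding promoters.

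The next lines show 30 bases around the ETS or YY1 string nearest to the start, for the 4 members with the highest and the 4 with the lowest input ratio (salubrinal over control) among the 36 measured members that hold either string. Only members with either string were ordered, so both ends hold one by construction, and the lines show only where it lies. Sequences are from RefSeq, 5′ to 3′ in the direction of the gene, and capitals mark the searched string, which reads CTTCCGG where the ETS string lies on the opposite strand.
MRPS18C: agggctcgcggaCCGGAAGcacgcataaac
MRPS27: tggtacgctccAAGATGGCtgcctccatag
MRPL45: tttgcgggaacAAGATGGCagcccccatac
MRPS22: ccctcccaaccaCTTCCGGcgcaagtggct
MRPL38: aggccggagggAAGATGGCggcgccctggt
MRPL43: gtcgtcccggaaCCGGAAGcctcgaggttt
MRPS34: ctCTTCCGGtgaCTTCCGGccggaccgctg
MRPS12: cacggatagcgcCCGGAAGaggctagaagc
In GRCh38.p14 the stretches lie at chr4:83455824-83455853 (plus strand) for MRPS18C and chr5:72320206-72320235 (minus strand) for MRPS27. Those of MRPL45 and MRPS22 are at chr17:38297170-38297199 (plus) and chr3:139343987-139344016 (plus). Those of MRPL38 and MRPL43 are at chr17:75904860-75904889 (minus) and chr10:100987498-100987527 (minus). Those of MRPS34 and MRPS12 are at chr16:1773136-1773165 (minus) and chr19:38930927-38930956 (plus). The stretches of MRPS27 and MRPL45 lie just inside the transcript, those of MRPS22, MRPL38 and MRPS12 cross its start, and those of MRPS18C, MRPL43 and MRPS34 lie upstream of it.

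Mitochondrial ribosomal protein transcripts stood, as a family, near the same scaled level in both inputs, with single members higher or lower. On the log2 scale the median ratio of salubrinal to control was 0.07 over 63 measured members, against 0.02 over all 10614 measured rows. The small subunit had a median of 0.12 (24 rows) and the large subunit 0.02 (39 rows). No member was at least 2-fold higher in the salubrinal input, against 2.75% of all measured rows. At least 2-fold lower were 3 members, against 3.80% of all measured rows. These were Mrps12, Mrps34 and Mrpl43, with 69, 51 and 119 counts over both inputs. Among members with at least 200 counts, 0 were 2-fold lower. With 1 library per treatment these differences have no replicate check and no test, and each 95% interval given below is exact and covers counting error only.

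The inputs held 145107865 counts (salubrinal) and 203322430 counts (control), and reads not aligned made up 27.3% and 14.4% of them. Gene rows took 7.06% and 5.94%, and of those gene-row counts a single row, CT010467.1, held 12.8% in the salubrinal library and 56.7% in the control library. Libraries were therefore scaled by TMM, which gave effective sizes of 14196625 and 8709909 counts, so that a row at an equal level holds 1.63 salubrinal counts for each control count. Scaled by total gene-row counts instead, the median of all rows moves up by 0.93 and that of the members to 1.00, while the members' median stays 0.05 above that of all rows. The part that the unequal CT010467.1 row and the unaligned reads have in single ratios was not tested. Rows of the input tables carry mouse-style symbols although the cells are human, and their reference is named in none of the sources used here. Of the 7 melanocyte markers looked up, 5 reached 50 counts, Mlana was at 0 in both libraries, and Tyrp1 had 0 and 5 counts, and the summed level of the measured 5 was 1326 counts per 1000000 scaled counts (CPM) with salubrinal and 2708 CPM in the control. Pmel, Dct, Sox10 and Mitf were each at least 2-fold lower in the salubrinal input, and Tyr, with 1524 and 963 counts, had a log2 ratio of -0.04 (-0.16 to 0.08). The 8 markers of other cell types had 0 to 20 counts each in either library. The part of the melanocyte shift in the members' ratios was not tested, and in bulk RNA fewer cells of a type and less RNA per cell cannot be told apart. The known ISR targets Asns, Ddit3, Trib3 and Chac1, and Atf4 itself, had ratios from 1.82 to 3.20 on the log2 scale.

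Of the 79 members, 63 had at least 50 counts over both inputs and are called measured here, and 35 had at least 200. Another 11 had 1 to 49 counts and 5 had none. Single members' log2 ratios ran from -2.37 to 0.93, with the middle 50% of members between -0.33 and 0.24, and 34 lay above 0 and 29 below. Among all measured rows the middle 50% lay between -0.30 and 0.32. Above 1.5-fold were 9 members (5 small, 4 large), as were 11.0% of all measured rows. Lower by that factor were also 9 (4 small, 5 large), as were 12.1% of all rows. The share of all rows at least 2-fold higher was 2.75%, with 0 of 63 members, and the share at least 2-fold lower was 3.80%, with 3 of 63. Scaled by total gene-row counts, 47 members would lie 1.5-fold or more above and 2 below. The counting interval lay above 0 for 11 members and below 0 for 12 and spanned 0 for the other 40, while it lay above 0 for 25.1% and below 0 for 23.0% of all rows. The shares of members beyond 1.5-fold and 2-fold are thus near those of all measured rows.

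**Figure D1:**
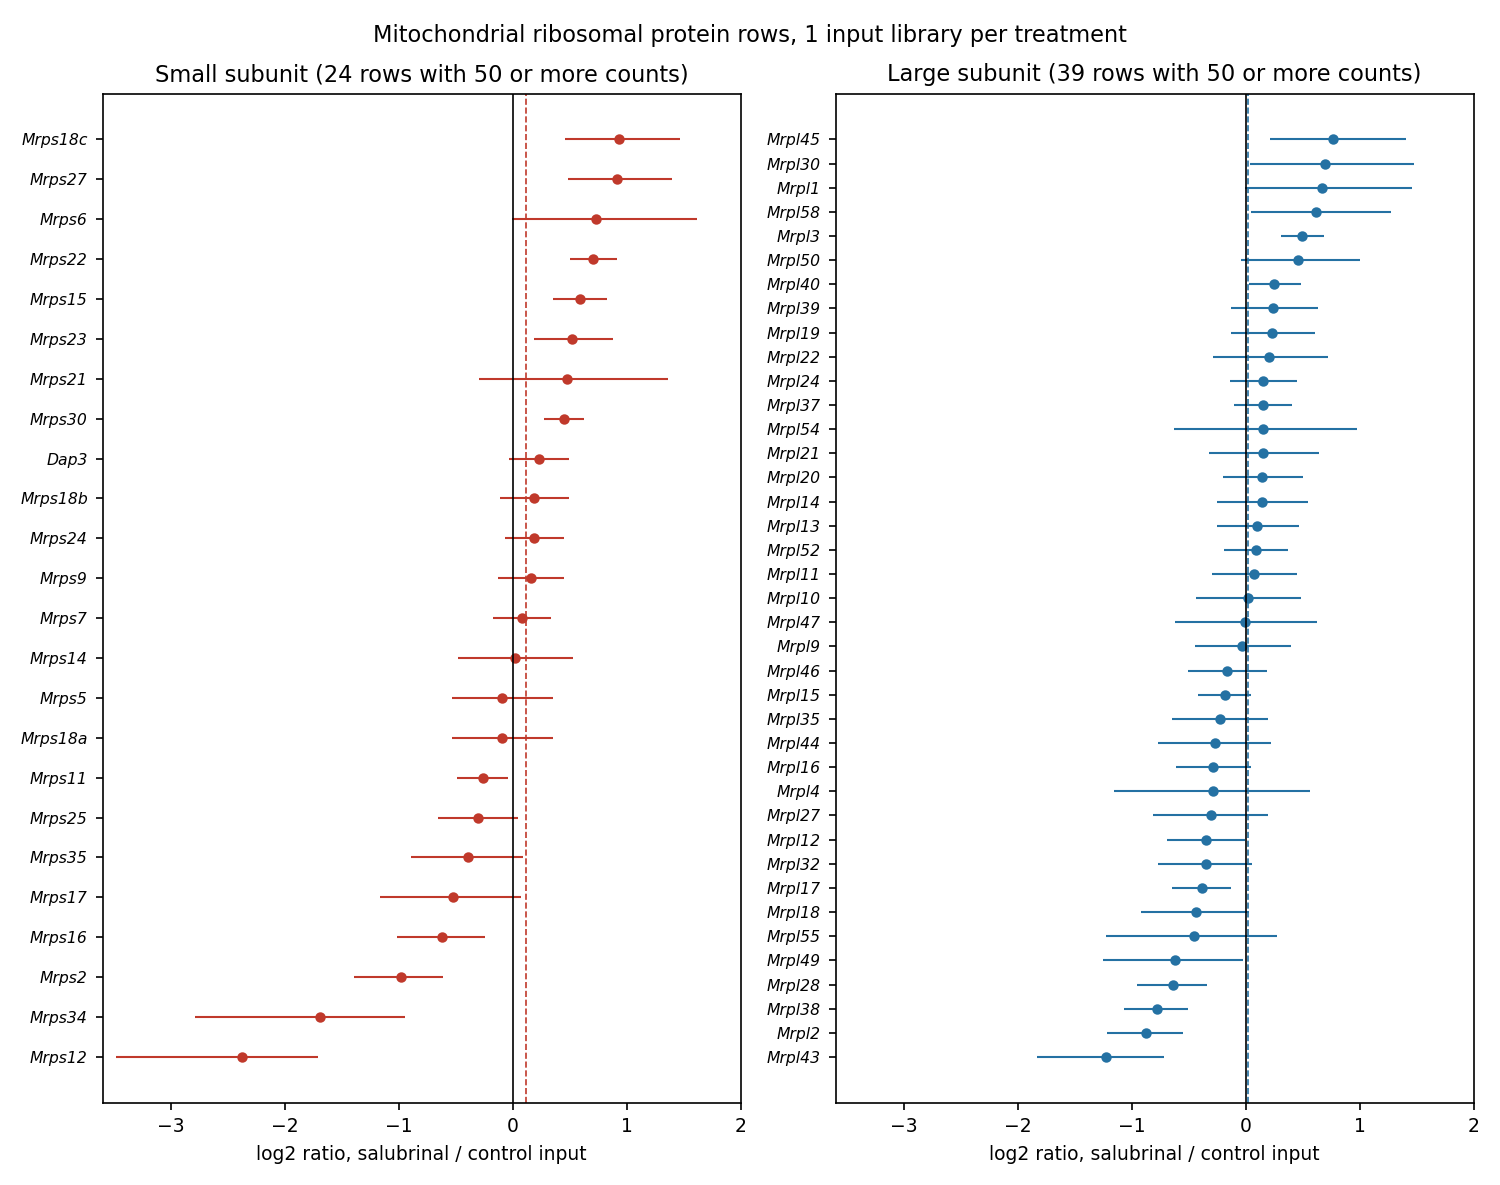
Log2 ratio of salubrinal to control input for each measured member, small subunit rows on the left and large subunit rows on the right, with exact 95% counting intervals as bars, a solid line at 0 and the subunit's median as a dashed line (0.12 and 0.02). Mrps12, Mrps34 and Mrpl43 are the members beyond 2-fold, all lower with salubrinal.

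The small subunit rows spread more widely than the large subunit rows. Their standard deviation over rows was 0.79, against 0.44 for the large subunit and 0.54 for all measured rows. The value of 0.79 rests in part on the lowest small subunit rows, Mrps12 (-2.37, 69 counts) and Mrps34 (-1.69, 51 counts). It was not computed without them. The lower and upper quartiles were -0.33 and 0.49 in the small subunit and -0.33 and 0.18 in the large subunit. Those of all measured rows were -0.30 and 0.32. Summed over their measured rows, small subunit counts were 5598 with salubrinal and 3028 in the control, a log2 ratio of 0.18 (0.12 to 0.25). Large subunit counts were 6504 and 4105, a ratio of -0.04 (-0.10 to 0.02). Both intervals treat counts as independent, and the sums weigh rows by their counts. Some proteins named for the small subunit sit in the large one in structures: Mrps30 (mL65) and Mrps18a (mL66) here. Moved there, they leave the medians at 0.12 and 0.02 and turn the summed ratios to 0.14 and 0.01.

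**Figure D2:**
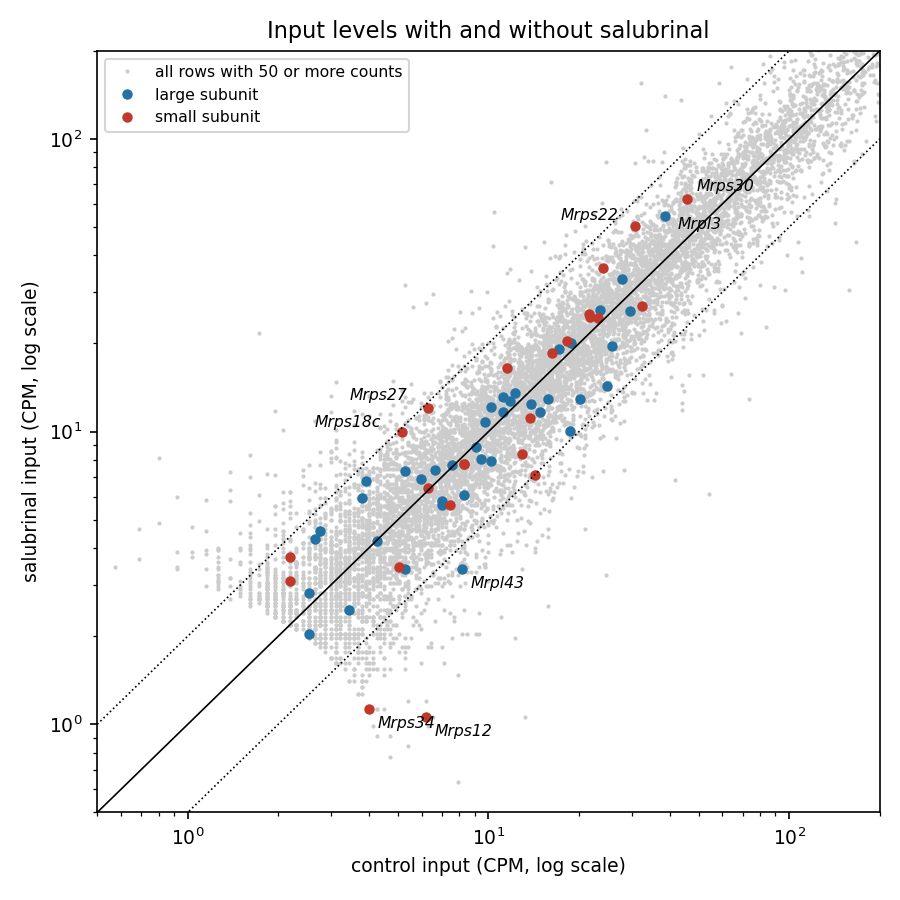
Scaled level of each measured row in the control input (x axis) and the salubrinal input (y axis), in CPM on log scales from 0.5 to 200, with all rows in grey, large subunit rows in blue and small subunit rows in red. The solid line marks equal levels and the dotted lines 2-fold differences; most members follow the solid line, and Mrps12, Mrps34 and Mrpl43 lie under the lower dotted line.

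A panel of 6 proteins in the head, body and platform of the small subunit, around the decoding site and the mRNA path, held both lower rows and rows near equality. Mrps12 is uS12, a protein of the decoding centre whose bacterial counterpart sets the accuracy of decoding and is the site of streptomycin resistance. It had 15 counts with salubrinal and 54 in the control, a log2 ratio of -2.37 (-3.48 to -1.71), the lowest of all measured members. Mrps2 (uS2) had 101 and 124 counts, a ratio of -0.98 (-1.39 to -0.61). Mrps11 (uS11), on the platform of the subunit, had 382 and 282 counts, a ratio of -0.27 (-0.49 to -0.04). These 3 rows had intervals wholly below 0. Mrps5 (uS5), near the site where the mRNA enters, had 110 and 72 counts, a ratio of -0.09 (-0.54 to 0.36). Mrps7 and Mrps9 (uS7 and uS9) belong to the head of the subunit. Mrps7 had 346 and 201 counts, a ratio of 0.08 (-0.18 to 0.34), and Mrps9 had 289 and 159, a ratio of 0.16 (-0.13 to 0.45). The median of these 6 rows was -0.18, with 4 below 0 and 2 above, where 5090 of 10614 measured rows lay below 0. The panel does not hold every protein of the mRNA path. Mrps24, the counterpart of bacterial uS3 at the mRNA entry, had 351 and 189 counts, a ratio of 0.19 (-0.07 to 0.45), and Mrps21 (bS21), on the platform, had 44 and 19, a ratio of 0.47 (-0.30 to 1.37).

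Other small subunit rows were higher with salubrinal. Mrps27 is a mitochondria-specific protein (mS27) with RNA-binding pentatricopeptide repeats. It had 171 counts with salubrinal and 55 in the control, a log2 ratio of 0.91 (0.49 to 1.40). Mrps22 (mS22) is also found only in mitochondria, and inherited defects of it cause mitochondrial disease. It had 714 and 268 counts, a ratio of 0.71 (0.50 to 0.92). Mrps15 (uS15) binds the small subunit rRNA directly. It had 515 and 210 counts, a ratio of 0.59 (0.36 to 0.83). Mrps23 (mS23) had 235 and 100 counts, a ratio of 0.52 (0.18 to 0.88), and Mrps30 (mL65) had 884 and 397, a ratio of 0.45 (0.28 to 0.62). The intervals of these 5 rows lay above 0. Dap3 (mS29), the GTP-binding protein of the subunit that was first described in cell death, had 359 and 188 counts, a ratio of 0.23 (-0.03 to 0.49), which spans 0.

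At the other end, Mrps34 (mS34), another mitochondria-specific protein with known disease alleles, had 16 counts with salubrinal and 35 in the control, a log2 ratio of -1.69 (-2.79 to -0.94). Its human gene overlaps EME2 in the RefSeq table, so reads there could belong to either gene. Overlap is not particular to the members named for it here: 30 of the 71 with a promoter entry overlap another gene in that table. Whether the input rows follow that layout is not known. Mrps16 (bS16) had 119 and 113 counts, a ratio of -0.62 (-1.01 to -0.25). Mrps25 (mS25) had 158 and 120 counts, a ratio of -0.30 (-0.66 to 0.05). The first 2 of these intervals exclude 0 and the third does not. Apart from the Mrps18 rows, described next, the rest of the small subunit lay between Mrps17 (uS17), with 49 and 44 counts and a ratio of -0.53 (-1.17 to 0.07), and Mrps6 (bS6), with 53 and 19 counts and a ratio of 0.73 (-0.00 to 1.61). All their intervals include 0.

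Mrps18a, Mrps18b and Mrps18c are paralogs of 1 bacterial protein that occupy different places in the ribosome. Mrps18c had 142 counts with salubrinal and 45 in the control, a log2 ratio of 0.93 (0.46 to 1.47), the highest of the measured members. Mrps18b had 264 and 142, a ratio of 0.19 (-0.11 to 0.49), and Mrps18a had 110 and 72, a ratio of -0.09 (-0.54 to 0.36). The interval of Mrps18c overlaps that of Mrps18b slightly and does not overlap that of Mrps18a. The human gene of Mrps18c overlaps ABRAXAS1.

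In the large subunit, the row next to the site of peptide bond formation and the core row stood on opposite sides. Mrpl3 (uL3), beside the peptidyl transferase centre, had 773 counts with salubrinal and 336 in the control, a log2 ratio of 0.50 (0.31 to 0.69). Mrpl2 (uL2), in the core of the subunit, had 143 and 162, a ratio of -0.87 (-1.22 to -0.55). Their intervals do not meet. Mrpl4 and Mrpl22 (uL4 and uL22) line the wall of the tunnel through which the new chain leaves. Mrpl4 had 29 and 22 counts, a ratio of -0.28 (-1.16 to 0.56), and Mrpl22 had 98 and 52, a ratio of 0.20 (-0.29 to 0.72). Mrpl45 (mL45) holds the ribosome to the inner membrane at the tunnel exit. It had 96 and 34 counts, a ratio of 0.77 (0.21 to 1.40), the highest of the large subunit. Mrpl24 (uL24) and Mrpl17 (bL17) lie at the same exit. Mrpl24 had 272 and 150 counts, a ratio of 0.15 (-0.14 to 0.45), and Mrpl17 had 279 and 224, a ratio of -0.39 (-0.65 to -0.13). Mrpl45 and Mrpl17 thus differ in sign, with intervals on either side of 0. The panel of Mrpl2, Mrpl3, Mrpl4 and Mrpl22 had a median of -0.04, with 2 rows above 0 and 2 below. That of Mrpl45, Mrpl24 and Mrpl17 had a median of 0.15, with 2 above and 1 below.

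The stalk recruits translational GTPases such as elongation factors. Mrpl10 and Mrpl11 (uL10 and uL11) form its base. Mrpl10 had 109 counts with salubrinal and 66 in the control, a log2 ratio of 0.02 (-0.44 to 0.48), and Mrpl11 had 166 and 97, a ratio of 0.07 (-0.30 to 0.45). Mrpl12 (bL12), the flexible stalk protein itself, had 165 and 129, a ratio of -0.35 (-0.69 to -0.01). The interval of Mrpl12 overlaps those of both base proteins. The median of these 3 stalk rows was 0.02.

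A panel of the central protuberance, the part of the large subunit that faces the head of the small one, had a median of -0.31. Of its 5 measured rows 4 lay below 0, where 5090 of 10614 measured rows lay below 0. The panel does not hold every protein of this part, so the median and the signs are those of these 5 rows and not of the whole part. Mrpl38 (mL38) had 204 counts with salubrinal and 216 in the control, a log2 ratio of -0.78 (-1.07 to -0.50). Mrpl18 (uL18) had 86 and 72, a ratio of -0.44 (-0.92 to 0.02). Mrpl27 and Mrpl46 (bL27 and mL46) also lay under 0, with intervals that span it. Mrpl27 had 80 and 61 counts, a ratio of -0.31 (-0.81 to 0.19), and Mrpl46 had 176 and 121, a ratio of -0.16 (-0.51 to 0.18). Mrpl40 (mL40) was the only one of the 5 above 0, with 472 and 243 counts and a ratio of 0.25 (0.03 to 0.48). Among these 5 rows the intervals of Mrpl38 and Mrpl40 lie on opposite sides of 0.

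Mrpl43 (mL43), a mitochondria-specific protein, was the lowest of the large subunit, with 48 counts with salubrinal and 71 in the control, a log2 ratio of -1.23 (-1.83 to -0.72). The human gene overlaps SEMA4G. Mrpl28 (bL28) had 183 and 176 counts, a ratio of -0.64 (-0.96 to -0.34). Mrpl49 (mL49) had 48 and 46 counts, a ratio of -0.62 (-1.26 to -0.03). Mrpl32 (bL32) is cut to its mature form by the m-AAA protease, a step that ribosome assembly needs. It had 113 and 89 counts, a ratio of -0.35 (-0.77 to 0.06). Above 0 were Mrpl30 (uL30), with 65 and 24 counts and a ratio of 0.70 (0.04 to 1.47), and Mrpl58 (mL62), with 84 and 33 and a ratio of 0.62 (0.05 to 1.27). Mrpl58, also known as ICT1, can release chains from stalled ribosomes. Mrpl1 (uL1), the protein of the other, L1 stalk, had 61 and 23 counts, a ratio of 0.67 (-0.01 to 1.46). Of these 7 rows, only Mrpl32 and Mrpl1 have intervals that include 0.

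A further group of large subunit rows lay close to equality. Mrpl39 (mL39) had 172 counts with salubrinal and 89 in the control, a log2 ratio of 0.24 (-0.13 to 0.63). Mrpl19 (bL19) had 186 and 97, a ratio of 0.23 (-0.13 to 0.60). Mrpl37 (mL37) had 369 and 204, a ratio of 0.15 (-0.10 to 0.40). Mrpl44 (mL44), which has the fold of ribonuclease III, lay slightly lower. It had 82 and 61 counts, a ratio of -0.27 (-0.77 to 0.22). All 4 intervals include 0. In the large subunit as a whole, 5 intervals lay above 0, 7 below and 27 across it, and in the small subunit 6, 5 and 13.

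Members can also be divided by number alone, since Mrps numbers up to 21 and Mrpl numbers up to 36 follow those of bacterial proteins (Mrps24 is one that the number misplaces). The 39 measured rows with such numbers had a median of 0.02, and the 24 others, Dap3 included, had 0.15. Summed counts gave -0.03 (-0.09 to 0.02) for the first class and 0.18 (0.12 to 0.25) for the second. In the second class, the 9 small subunit rows had a summed ratio of 0.36 (0.27 to 0.45) and the 15 large subunit rows -0.02 (-0.12 to 0.07). Mrps30 and Mrps22 hold the largest counts of those 9 rows.

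Not every member could be measured. Of the 16 rows under 50 counts, 6 belong to the small subunit. Mrps28 had 32 counts with salubrinal and 17 in the control, Mrps10 had 28 and 18, Mrps31 had 19 and 4, and Mrps26 had 10 and 17. Mrps33 had 0 and 2. Mrps36 had 0 and 1, and its protein is a subunit of the 2-oxoglutarate dehydrogenase complex rather than of the ribosome, as the human name KGD4 says. In the large subunit Mrpl57 had 10 and 23 counts, Mrpl48 had 16 and 6, Mrpl34 had 8 and 6, Mrpl51 had 2 and 0, and Mrpl41 had 1 and 0. Mrpl23, Mrpl33, Mrpl36, Mrpl42 and Mrpl53 had none in either input. By counting error alone this allows up to 0.211 CPM with salubrinal and 0.344 CPM in the control. These limits do not cover reads that the unnamed reference could not place on the rows. Some of these genes had counts on rows named as their pseudogenes. Mrpl23-ps1 had 98 and 77 counts while Mrpl23 (uL23, at the tunnel exit) had none, a log2 ratio for the pseudogene row of -0.35 (-0.80 to 0.09). Mrps36-ps1 had 42 and 10, a ratio of 1.24 (0.35 to 2.53), and Mrpl48-ps had 40 and 18, a ratio of 0.42 (-0.39 to 1.34). Reads of near-identical copies may be placed on either row, so the levels of these 3 genes are uncertain.

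Members of longer human genes tended to lie higher with salubrinal. Across the 63 measured members, the ratio and the genomic length of the human gene in GRCh38.p14 (all 63 matched) had a Spearman correlation of 0.51 and a Pearson correlation of 0.53 with log length. All points share the same 2 libraries and one scaling, so this is a description. Without the 2 longest genes, Spearman's rho was 0.46, without the 3 members beyond 2-fold it was 0.47, and among the 35 members with at least 200 counts it was 0.48. Across 8346 protein-coding rows it was 0.13. The 16 members of genes up to 5000 bases had a median of -0.37, with 11 below 0, where 571 coding rows of that length had -0.15. Mrps34 and Mrps12, whose genes span 1240 and 2225 bases, belong here. The 18 members between 5000 and 10000 bases had a median of -0.07 (coding rows -0.10), and the 15 between 10000 and 20000 bases had 0.14 (coding rows -0.11). The 14 members above 20000 bases had a median of 0.22, with 11 above 0 (coding rows 0.03), among them Mrps27, the longest of them with a span of 100838 bases, Mrps6, Mrpl1, Mrpl3 and Mrpl45. Within the small subunit rho was 0.44 and within the large subunit 0.51. The correlation with the GC content of the promoter was -0.20 over 57 members and -0.12 over the coding rows.

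**Figure D3:**
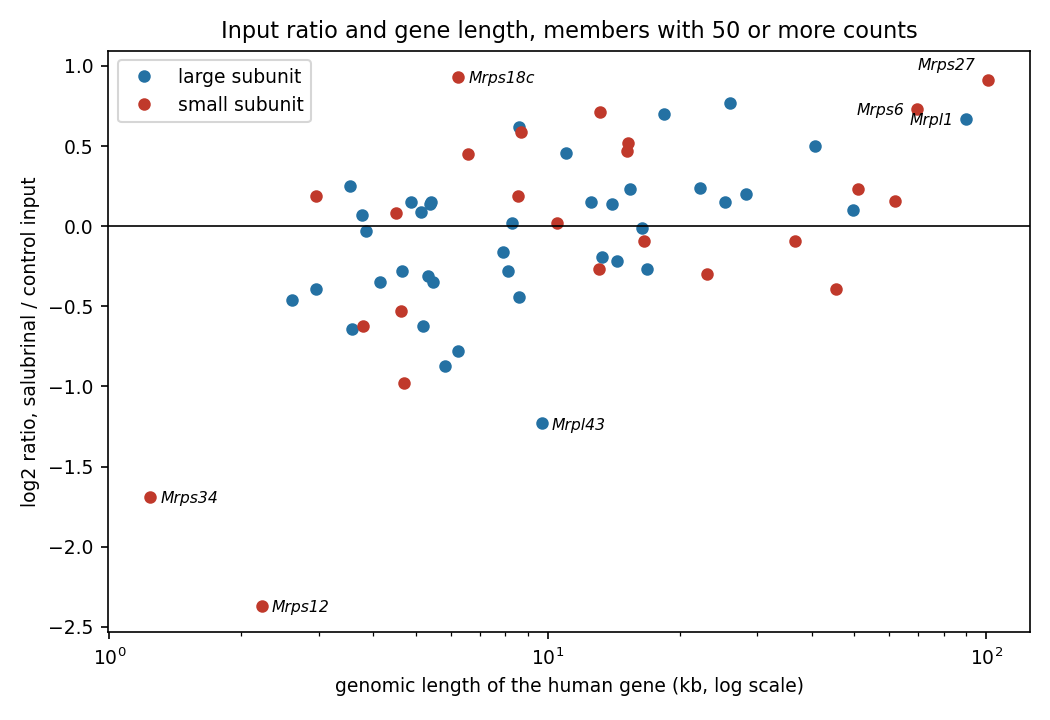
Log2 ratio of salubrinal to control input against the genomic length of the human gene (kb, log scale) for the 63 measured members, large subunit in blue and small subunit in red. Points rise from the short genes Mrps34 and Mrps12 at lower left to Mrps27, Mrpl1 and Mrps6 at upper right, with Mrps18c and Mrpl43 away from that trend.

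Input ratios were also set against the promoter strings shown above. With the ETS string the median was 0.09 (21 measured members) and without it 0.07 (36). With the YY1 string it was 0.14 (21) and without it -0.18 (36). With the NRF1 string it was 0.15 (10) and without it -0.01 (47). Each of these medians lies within the middle 50% of members (-0.33 to 0.24).

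The RNA and protein partners of the members were in the same tables. The rRNA of the small subunit, 12S (mt-Rnr1), had 218244 counts with salubrinal and 161266 in the control, a log2 ratio of -0.27 (-0.28 to -0.26). The rRNA of the large subunit, 16S (mt-Rnr2), had 1820363 and 1068328, a ratio of 0.06 (0.06 to 0.07). The order of the rRNAs was thus the opposite of that of the protein medians. Subunit proteins with other names were mostly lower. Aurkaip1 (mS38) had 182 and 162 counts, a ratio of -0.53 (-0.85 to -0.22), Gadd45gip1 (mL64) had 39 and 39, a ratio of -0.67 (-1.38 to -0.03), and Chchd1 (mS37) had 59 and 53, a ratio of -0.53 (-1.11 to 0.01). Ptcd3 (mS39), which receives the mRNA, had 420 and 247, a ratio of 0.06 (-0.17 to 0.29).

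Factors that build the mitochondrial ribosome had a median of -0.19 over 21 measured of 29 rows, with 1 row beyond 1.5-fold in each direction. The rRNA methyltransferase gene Mrm3 was lowest, with 80 counts with salubrinal and 100 in the control, a log2 ratio of -1.00 (-1.47 to -0.59). Mettl17 (119 and 107 counts) and Mtg1 (79 and 71) had ratios of -0.54 each, and Mterf3 (158 and 69) and Mettl15 (41 and 16) had 0.48 and 0.61. Translation factors of mitochondria had a median of -0.05 over 14 measured of 17 rows, with 1 row at least 1.5-fold lower and 0 higher. Among them Letm1, a ribosome-associated protein of the inner membrane, was lowest, with 197 and 234 counts and a ratio of -0.94 (-1.23 to -0.67). Tufm, the elongation factor that brings tRNA, had 360 and 317 counts, a ratio of -0.52 (-0.74 to -0.30). Mtif2, the initiation factor, had 686 and 359, a ratio of 0.23 (0.04 to 0.42), and Mtrf1l, a release factor, had 98 and 52, a ratio of 0.20 (-0.29 to 0.72).

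The proteins of the cytosolic ribosome were set beside those of the mitochondrial one. Of 83 cytosolic rows 65 were measured, with a median of 0.35, 50 above 0 and 15 below. Beyond 1.5-fold were 18 higher and 2 lower rows, against 9 and 9 of the 63 mitochondrial members. Near-identical copies are common among cytosolic ribosomal protein genes, which makes their rows less certain. The difference of the medians has no test.

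**Figure D4:**
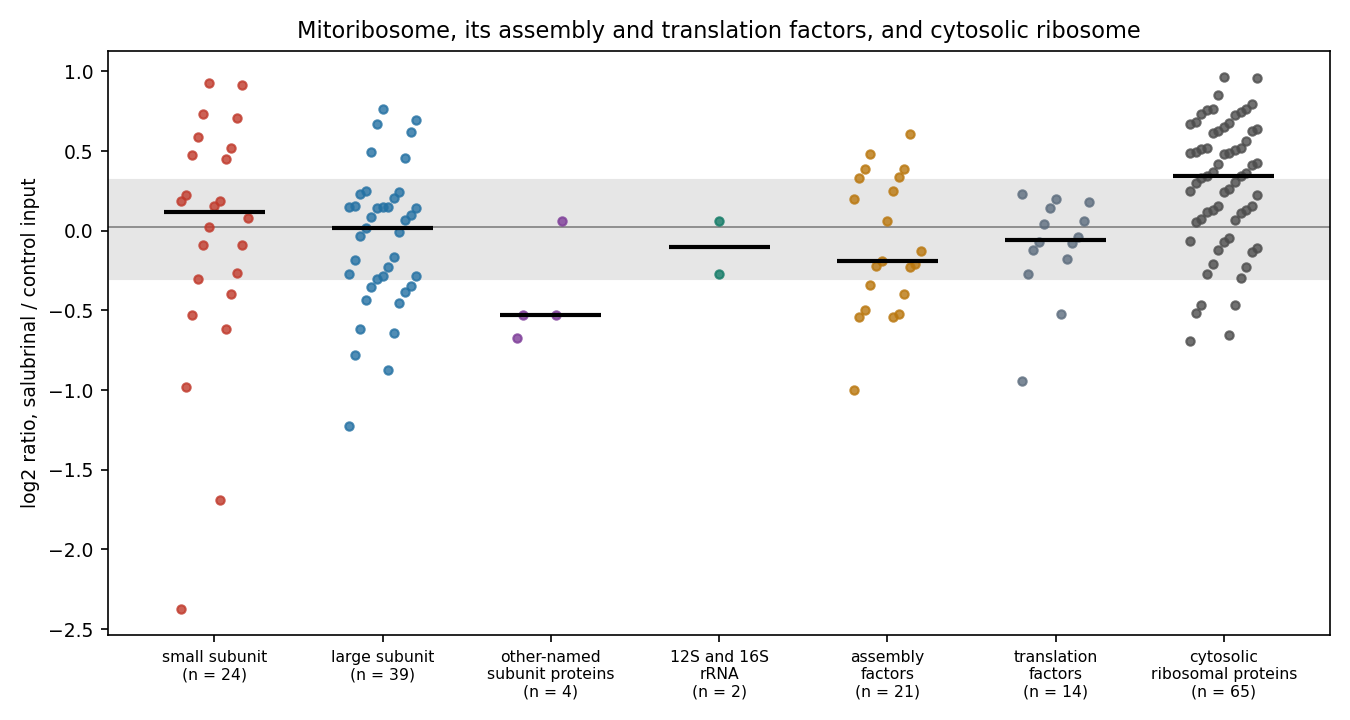
Log2 ratio of salubrinal to control input for measured rows of the mitochondrial ribosome by subunit, its other-named proteins, rRNAs, assembly and translation factors, and the cytosolic ribosomal proteins, with a black bar at each median. The grey line and band mark the median and the middle 50% of all measured rows (0.02, and -0.30 to 0.32); the cytosolic median of 0.35 lies above the band and that of the other-named proteins, -0.53, below it.

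The gradient fractions held too few counts of the members for a comparison. Of 77 human-symbol rows of the same pattern, 33 had any count in the 24 files and 44 had none. Together they had 283 counts, 76 in salubrinal files and 207 in control files, where all rows outside ribosomal RNA had 87165 and 202287. Most of the 76 came from salubrinal replicate 3, with 19, 18, 14 and 18 in its 40S, 60S, 80S and polysome files. Salubrinal replicate 1 had 2, 2, 3 and 0, and replicate 2 had 0 in each. In single files the members made up at most 0.157% of the counts outside ribosomal RNA. In 5 salubrinal files no member count was found, which at 885 to 2629 counts outside ribosomal RNA allows a share of up to 0.339% in the shallowest and 0.114% in the deepest. MRPS18C had the most counts, 98, of which 20 were in salubrinal and 78 in control files. Most of the 20 were again in replicate 3, with 4, 7, 2 and 5 in its 40S, 60S, 80S and polysome files. In the polysome files MRPS18C had 0, 0 and 5 counts with salubrinal and 7, 1 and 12 in the controls. These groups overlap, and ABRAXAS1 shares its position. MRPL20 (bL20) had 26 counts, 5 with salubrinal and 21 in controls, and overlaps MRPL20-AS1. In the polysome files it had 0, 0 and 1 against 1, 1 and 1.

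Each fraction was compared with edgeR's quasi-likelihood test, 3 files against 3. No member row passed the filter on low counts in any fraction, so 0 were called at an adjusted p under 0.05 and 0 had an unadjusted p under 0.05. Over all rows tested, 3.73% were called in the polysome files (9 of 241), 12.7% in the 80S files (27 of 213), 9.83% in the 60S files (23 of 234) and 8.00% in the 40S files (18 of 225). DESeq2, run on every row with a count, called 0 member rows among the 21 it tested in the polysome files, 18 in the 60S files and 22 in the 40S files, and gave no member an adjusted p in the 80S files. The fraction files of a library also differed little among themselves. Outside ribosomal RNA, the 60S, 80S and polysome files of the same treatment and replicate number had a chi-square of 1.01 to 1.15 per degree of freedom over rows with at least 10 counts, with p from 0.0817 to 0.426. With the 40S file added, salubrinal replicate 1 gave 1.19 per degree of freedom (chi-square p = 0.00829). Control replicates 1 and 2 gave 1.23 and 1.47. In control replicate 1 the 40S file held 5673 counts outside ribosomal RNA, and the 60S, 80S and polysome files 21162 to 21920. In control replicate 2 the 40S file held 21217 and those other files 5500 to 5730. Whether the numbers of these 2 40S files were exchanged was not tested. Apart from their low counts, these files therefore do not show members' transcripts of one fraction apart from another, and nothing is read from them on what ribosomes hold.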

How the data were processed

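RNA-seq read counts per gene row, deposited by the authors without normalization, were used as they are for 2 input and 24 gradient fraction samples. Libraries were made with a TruSeq stranded total RNA kit, per the labels' protocols. HTSeq 0.5.3p3 and SAMtools 0.1.19.24 are among the tools in the submitters' processing notes, beside STAR, DESeq and FastQC 0.11.5, with the build hg19. How strands were treated, and the origin of the mouse-style input rows, are not given in these sources. Unaligned, ambiguous and other non-gene rows were left out of library sizes and held all but 7.06% (salubrinal) and 5.94% (control) of input counts. Every title names SK-MEL-28 and was followed, while the cell-line field holds differently numbered names.

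Input libraries were scaled by TMM (edgeR 4.0.16, R 4.3.3). The log2 ratio used a prior count of 2, and intervals are exact conditional binomial ones at 95%. Members needed 50 counts over both libraries. Named were the 6 highest and 6 lowest ratios per subunit among members with 200 counts, a panel of members by role, all members under 50 counts, and the 2 highest and 2 lowest of the other lists; further members, the length classes and the promoter stretches were chosen after values were seen. The members and lists were chosen with earlier results of these data known.

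Fractions were compared with edgeR (filterByExpr, TMM, robust quasi-likelihood fit, Benjamini-Hochberg threshold 0.05), with DESeq2 1.42.0 as an alternative. The labels do not say whether replicates are separate cultures, so any p-value here reflects sample spread that may be technical. Fraction files of a library were compared by chi-square outside ribosomal RNA and are not independent samples. The steps were tested on simulated data. Human names, neighbours, gene lengths and promoters came from RefSeq tables of GRCh38.p14, a build other than that of the files.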

Additional observations from a re-analysis of the deposited data

How the results depend on the processing

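Under scaling by total gene-row counts all members had a median of 1.00, the small subunit 1.05 and the large subunit 0.94, the summed ratios were 1.12 and 0.90, 47 members were at least 1.5-fold higher and 2 lower, and 31 were at least 2-fold higher and 1 lower; all rows shift by 0.93 in that scaling. With a minimum of 200 counts, which leaves 35 members, the small subunit median was 0.19, 3 members were at least 1.5-fold higher and 5 lower, and 0 were 2-fold lower. With 1 count in each library as the only minimum (70 members), 1 was at least 2-fold higher and 5 were lower. Size factors by median of ratios, upper quartiles, removal of mitochondrial, ribosomal RNA and unnamed rows, a prior count of 0.5 and subunits by structure left the medians, sums and counts of members within their tolerance. In the fractions, 44 alternatives called 0 member rows, and 8 of them tested any; without a filter 17 to 22 member rows were tested, with 0 at an unadjusted p under 0.05. Leaving out each replicate gave 0 throughout, but the filter left no member row to test except 1 in the 60S files without salubrinal replicate 1. With the replicate block 0 member rows were called, while rows called over all went from 9 to 4 in the polysome files, 27 to 15 in the 80S files, 23 to 9 in the 60S files and 18 to 0 in the 40S files. Same-numbered files correlated between -0.21 and 0.55 in their deviations from group means, and the numbers were not taken to pair the samples. For the 40S files, the block and the correlations use control numbers 1 and 2, whose totals are like those of the other number in the other fractions. The input has no replicates, and its depth limits single rows: 40 of 63 intervals span 0.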

Other observations

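Several members share a start region with a gene that runs the other way. Within 1000 bases, 19 of 71 members with a promoter entry had such a partner (26.8%), against 1663 of 15843 protein-coding genes (10.5%). Of these, 9 pairs had at least 50 counts on each side in the input, and in 6 both genes lay on the same side of 0. The same share was not computed for pairs of other coding genes, so whether partners go together was not tested. The pair Mrps11 and Mrpl46, 2 members that start 320 bases apart, is counted from both sides, with ratios of -0.27 and -0.16. Mrps12 starts 181 bases from Sars2, the mitochondrial seryl-tRNA synthetase gene, which had 122 counts with salubrinal and 95 in the control, a log2 ratio of -0.34 (-0.74 to 0.06), against -2.37 for Mrps12. Mrpl30 (0.70) starts 126 bases from Mitd1, which had 156 and 76 counts, a ratio of 0.33 (-0.07 to 0.75). Mrpl49 (-0.62) starts 49 bases from Fau, which encodes a precursor of a cytosolic ribosomal protein and had 244 and 196 counts, a ratio of -0.39 (-0.67 to -0.11). Mrpl32 (-0.35) and its neighbour Psma2, a proteasome subunit gene with 1620 and 828 counts and a ratio of 0.26 (0.14 to 0.39), lay on opposite sides. These pairs were chosen after their values were seen.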
